A study of Mus musculus with 12 samples.

Results

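The genes described here are 9 genes of mitochondrial biogenesis: the coactivator genes Ppargc1a and Ppargc1b, the transcription factor genes Nrf1, Esrra and Gabpa, and the mitochondrial DNA genes Tfam, Tfb1m, Tfb2m and Polg. They were chosen by symbol, and they are 9 of the 77175 genes in the deposited count table. Ppargc1a was already known to be high in the tumor libraries when the list was made, so its difference between tumor and T cell libraries is given as a description, without a test. All 9 genes passed the filter on low counts in every comparison, and the smallest count of any of them in 1 library was 17.

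The series measured poly(A)-selected RNA by bulk sequencing in 12 mouse libraries, which form 4 groups of 3. B16-F10, a mouse melanoma line, was grown as tumors in NOD-SCID mice, a strain without T and B cells of its own. Both tumor lines carried a lentiviral construct with the calcium sensor GCaMP6s under the EF1A promoter, and B16-F10-OVA also expressed ovalbumin. The labels do not say whether either line is 1 clone. All mice, including those with the B16-F10 tumors that lack ovalbumin, received OT-1 CD8+ T cells, whose receptor recognizes an ovalbumin peptide, from C57BL/6J-OT-I donors. These cells had been activated with anti-CD3/anti-CD28 beads. No group without T cells enters the comparisons. Tumors were taken 2 days after transfer, tumor cells were sorted by FACS for GCaMP6s, and T cells were selected with CD8 beads. The groups are called B16-F10 tumor cells, OVA tumor cells, B16-F10 T fraction and OVA T fraction. The ages of the mice are not given in the labels. The labels also leave it unsaid whether a group's libraries are separate mice. The p-values therefore cover the scatter among these libraries alone, and that scatter may be technical.

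Mitochondria are built from proteins encoded in the nucleus and from a small set encoded by mitochondrial DNA. The PGC-1 coactivators bind no DNA themselves. They dock on transcription factors such as NRF1, ERRα and the GABP complex, which raise nuclear genes of the respiratory chain and of the mitochondrial DNA machinery, TFAM among them. In melanocytes and melanoma, the lineage factor MITF is known to drive Ppargc1a, and melanomas differ in how much of it they express.

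The promoters of the members were read from RefSeq (GRCm38.p6, an older build than the GRCm39 of the counts), which held 9 promoters of 8 members, with 2 starts for Nrf1. The 250 bases before each start were searched on both strands for 6 short motifs. These were the NRF1 motif GCGCANGCG, the ETS motif CCGGAAGT that GABP binds, the ERR motif TCAAGGTCA, the cyclic AMP element TGACGTCA, the M-box TCATGTG that MITF binds, and the E-box CACGTG. No 2 matches in these promoters overlapped. The M-box was found in 1 of the 9 promoters, that of Ppargc1a, on the minus strand of the gene 160 to 154 bases before the start. It was in 3.25% of all 32851 promoters. The NRF1 motif was found 141 to 133 bases before the start of Esrra, and in 5.16% of all promoters. The ETS motif was found 47 to 40 bases before the start of Tfam and 38 to 31 bases before that of Polg, and in 2.88% of all promoters. The ERR motif (0.387% of all promoters), the cyclic AMP element (1.55%) and the E-box (6.02%) matched none of the 9. A match describes the letters only. The 4 windows with a match are shown because they hold the motif of MITF and those of NRF1 and GABP, whose own genes or targets are measured here. All lie on the minus strand and are written 5′ to 3′, with the motif in capitals (in Ppargc1a its reverse complement).
Ppargc1a, chr5:51567822-51567941: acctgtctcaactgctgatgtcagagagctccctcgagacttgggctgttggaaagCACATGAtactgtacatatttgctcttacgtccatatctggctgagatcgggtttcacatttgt
Esrra, chr19:6921885-6922004: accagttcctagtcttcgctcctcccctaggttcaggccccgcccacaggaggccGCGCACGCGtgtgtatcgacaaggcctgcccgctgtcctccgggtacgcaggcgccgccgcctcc
Tfam, chr10:71238073-71238102: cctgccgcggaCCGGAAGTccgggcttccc
Polg, chr7:79466293-79466322: gaggacctcacCCGGAAGTccctctgcacc

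The libraries held between 15494683 and 33263730 counts. Levels are given in CPM, the count scaled by the total of its library. The 11 melanoma markers summed to 23449 CPM in B16-F10 tumor cells and 9988 CPM in OVA tumor cells, and to 246 and 109 CPM in the B16-F10 and OVA T fractions. The 10 endothelial markers summed to 311 CPM in B16-F10 tumor cells, with Emcn and Cldn5 at 0 counts, to 4132 CPM in OVA tumor cells, and to 10041 and 9392 CPM in the T fractions. For the 8 fibroblast markers the sums were 81.9 and 1980 CPM in B16-F10 and OVA tumor cells and 5096 and 4680 CPM in the T fractions. The 8 macrophage and monocyte markers gave 12.4 and 1673 CPM in tumor cells and 318 and 229 CPM in the T fractions. The 10 T cell markers summed to 6.30 CPM in B16-F10 tumor cells, with Cd3e and Cd2 at 0 counts, 76.2 CPM in OVA tumor cells, and 555 and 601 CPM in the T fractions. Melanoma markers were highest in the tumor cells and T cell markers in the T fractions, as labelled. The T fractions however held more endothelial and more fibroblast than T cell marker RNA, so how far they are CD8+ T cells is in doubt, and the OVA tumor cell libraries held RNA of all these types. In bulk samples, fewer cells of a type and less RNA per cell cannot be told apart.

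Ppargc1a encodes PGC-1α, the coactivator that links many signals to mitochondrial biogenesis. The 3 libraries of B16-F10 tumor cells had 650, 655 and 627 CPM, a mean of 644 ± 14.5 (SD, n = 3). The OVA tumor cells had 334, 335 and 349 CPM, 339 ± 8.27 (SD, n = 3). The B16-F10 T fraction had 3.52, 3.96 and 4.45 CPM, 3.98 ± 0.465 (SD, n = 3), from 68 to 70 counts in each library. The OVA T fraction had 1.57, 1.74 and 1.19 CPM, 1.499 ± 0.284 (SD, n = 3), from 28 to 38 counts. All tumor libraries were far above all T fraction libraries, and no groups overlapped. Per kilobase of exon, Ppargc1a was the highest of the 9 members in tumor cells, at 97.7 CPM per kb in B16-F10 and 51.5 in OVA, where Gabpa had 15.8 and 11.4. In the T fractions it stood at 0.603 and 0.227 CPM per kb, where Gabpa had 12.7 and 12.6.

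Ppargc1b encodes PGC-1β, the relative of PGC-1α that shares many of its partners. Its levels were low in every group. They were 4.42, 5.56 and 5.28 CPM in B16-F10 tumor cells and 3.01, 3.41 and 3.06 CPM in OVA tumor cells. The B16-F10 T fraction had 1.97, 1.53 and 2.00 CPM, and the OVA T fraction 1.24, 0.988 and 0.933 CPM. The groups followed the same order as for Ppargc1a and did not overlap. Per kilobase of exon, Ppargc1b had 1.27 CPM per kb in B16-F10 tumor cells and 0.792 in OVA tumor cells, and 0.459 and 0.264 in the B16-F10 and OVA T fractions. Pprc1, the third gene of the PGC-1 family and not one of the 9, stood at 142 ± 3.90, 114 ± 2.09, 108 ± 1.77 and 119 ± 2.31 CPM (SD, n = 3 each) in B16-F10 tumor cells, OVA tumor cells, B16-F10 T fraction and OVA T fraction.

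**Figure D1:**
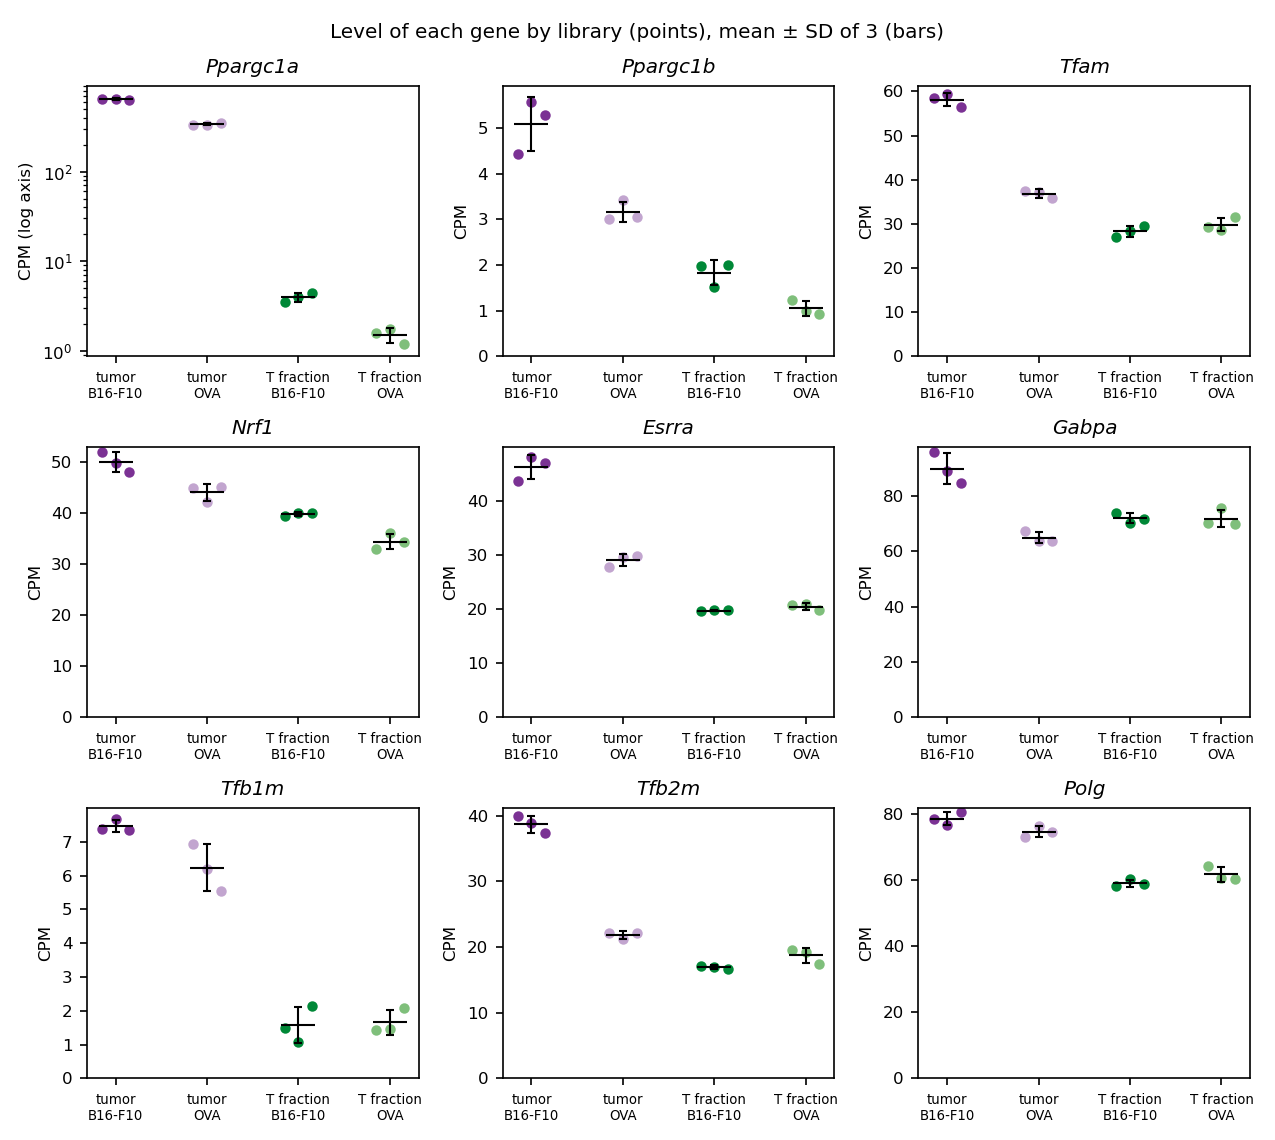
Level of each of the 9 genes in CPM in the 12 libraries (points), with the mean and SD of the 3 libraries of each group (bars); the axis of Ppargc1a is logarithmic and the others start at 0. Ppargc1a runs from 1.499 CPM in the OVA T fraction to 644 CPM in B16-F10 tumor cells, and in CPM the B16-F10 tumor cells are the highest group for all 9 genes, which turns for OVA tumor cells when scaled by melanoma markers.

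Among the transcription factor genes, Gabpa encodes the DNA-binding subunit of the GABP complex. It had 96.0, 88.9 and 84.8 CPM in B16-F10 tumor cells and 67.2, 63.8 and 63.6 CPM in OVA tumor cells. The T fractions had 73.8, 70.3 and 71.6 CPM in B16-F10 and 70.3, 75.5 and 69.8 CPM in OVA. The T fractions overlapped each other and lay between the tumor groups. Nrf1, a factor with binding sites in many respiratory chain promoters, had 51.9, 49.8 and 48.0 CPM in B16-F10 tumor cells and 44.8, 42.2 and 45.0 CPM in OVA tumor cells. Its T fraction levels were 39.4, 39.9 and 40.0 CPM in B16-F10 and 32.97, 36.0 and 34.2 CPM in OVA, with no overlap between the 4 groups. Esrra, which encodes the orphan nuclear receptor ERRα, had 43.6, 48.0 and 46.9 CPM in B16-F10 tumor cells, against 27.7, 29.6 and 29.8 CPM in OVA tumor cells. Both T fractions were lower, at 19.6, 19.7 and 19.8 CPM in B16-F10 and 20.8, 20.9 and 19.7 CPM in OVA, and they overlapped each other.

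Of the mitochondrial DNA genes, Tfam encodes the factor that packages mitochondrial DNA and helps start its transcription. It had 58.4, 59.4 and 56.6 CPM in B16-F10 tumor cells and 37.5, 37.3 and 35.8 CPM in OVA tumor cells. The T fractions overlapped, at 27.1, 28.3 and 29.6 CPM in B16-F10 and 29.3, 28.7 and 31.6 CPM in OVA. Tfb2m encodes the factor that opens the mitochondrial promoter for the polymerase. It was at 39.9, 38.8 and 37.3 CPM in B16-F10 tumor cells and 22.2, 21.2 and 22.1 CPM in OVA tumor cells. Its T fraction levels were 17.2, 17.0 and 16.6 CPM in B16-F10 and 19.5, 19.2 and 17.4 CPM in OVA, so that no groups overlapped.

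Tfb1m encodes a related enzyme that methylates mitochondrial ribosomal RNA. It was low in all groups, with 7.38, 7.67 and 7.34 CPM in B16-F10 tumor cells and 6.94, 6.19 and 5.55 CPM in OVA tumor cells. The T fractions had 1.503, 1.07 and 2.13 CPM in B16-F10 and 1.44, 1.45 and 2.08 CPM in OVA, which overlapped each other and lay below all tumor libraries. Polg, the catalytic subunit of the mitochondrial DNA polymerase, varied least of the mitochondrial DNA genes. It had 78.3, 76.6 and 80.6 CPM in B16-F10 tumor cells, 73.1, 76.2 and 74.6 CPM in OVA tumor cells, 58.0, 60.2 and 58.7 CPM in the B16-F10 T fraction and 64.2, 60.6 and 60.3 CPM in the OVA T fraction. No groups overlapped.

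Ppargc1a fell furthest of the 9 members from B16-F10 to OVA tumor cells when libraries were scaled by TMM, a factor computed from most genes, and it rose when they were scaled by the melanoma markers. On the TMM scale its log2 fold change was -0.76 (SE 0.0192, edgeR adjusted p = 2.15e-20), and on the melanoma marker scale 0.41. The 2 scalings answer different questions. TMM compares a gene with the bulk of the genes in a library, not with the library total as CPM does. The marker scaling compares a gene with the melanoma marker RNA, which was itself lower in the OVA tumor cell libraries. On the TMM scale the median of all 17418 genes tested was 0.04, and on the marker scale it was 1.21. Scaling by the markers thus raised the values by about as much as it raised the median gene.

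On the TMM scale 6 members were lower and 1 was higher in OVA tumor cells, out of 9, whereas all 9 were higher on the melanoma marker scale. Of all genes tested, 37.4% were lower and 42.0% were higher on the TMM scale, and 2.86% were lower and 90.5% higher on the marker scale, so that 9 of 9 there is near the share of all genes. Without a TMM factor 9 of 9 were lower. The median of the members was -0.49 on the TMM scale and 0.68 on the marker scale, below the median of all genes on both. Tfb2m had a log2 fold change of -0.65 (SE 0.0468, edgeR adjusted p = 1e-11; 0.51 on the marker scale). Ppargc1b had -0.53 (SE 0.133, edgeR adjusted p = 0.000974; 0.64 on the marker scale). Esrra had -0.51 (SE 0.0470, edgeR adjusted p = 9.99e-10; 0.66 on the marker scale). These 3 genes and Ppargc1a had the 4 lowest values of the members on both scales. The marker scaling shifts all genes by about the same amount. The order of the members, and their median lying below that of all genes, therefore had to be alike on both scales. Tfam followed with -0.49 (SE 0.0386, edgeR adjusted p = 5.76e-11; 0.68 on the marker scale), and Gabpa with -0.30 (SE 0.0381, edgeR adjusted p = 2.07e-07; 0.87 on the marker scale).

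Polg was the 1 member that was higher on the TMM scale, by 0.09 (SE 0.0301, edgeR adjusted p = 0.00725), although its CPM was lower in OVA tumor cells, and without a TMM factor it was lower by -0.08. Nrf1 did not pass the test at -0.01, with a 95% interval from -0.09 to 0.07, and Tfb1m did not at -0.08, with an interval from -0.29 to 0.13. Without a TMM factor both passed as lower, at -0.18 (edgeR adjusted p = 0.000339) and -0.25 (edgeR adjusted p = 0.0277). On the melanoma marker scale Polg, Nrf1 and Tfb1m had 1.26, 1.16 and 1.09, the highest values of the members. None of the 9 was beyond 2-fold on the TMM scale, since the farthest estimate was that of Ppargc1a at -0.76. The endothelial, fibroblast, macrophage and T cell markers were all higher in the OVA tumor cell libraries, and their part in these values was not tested.

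**Figure D2:**
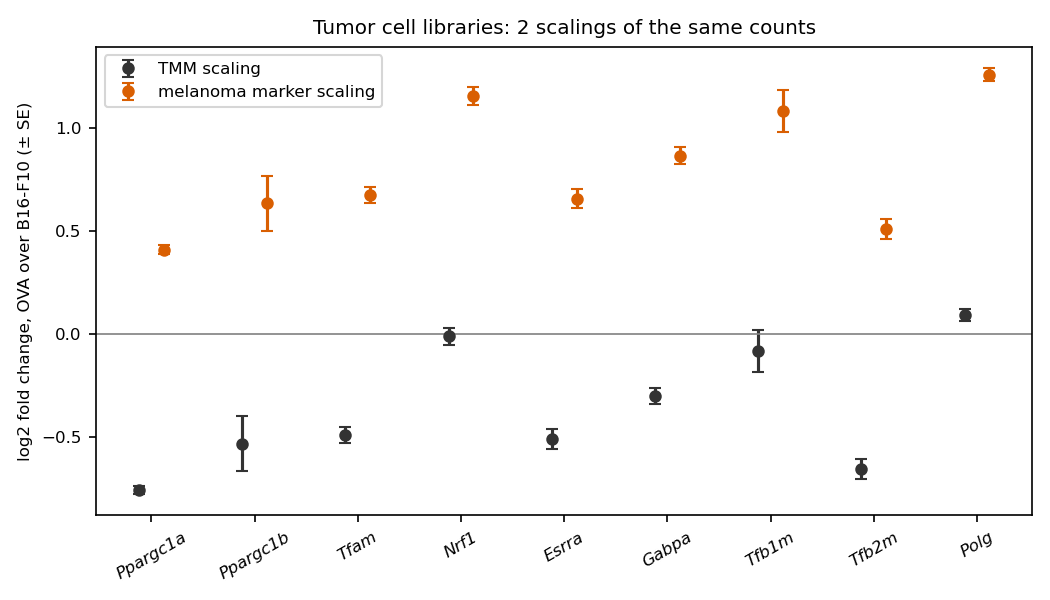
Log2 fold change of the 9 genes in tumor cells, OVA over B16-F10, with SE, fitted with TMM factors and with factors from the 11 melanoma markers. On the TMM scale 6 genes fell and Polg rose, while on the melanoma marker scale all 9 genes lie above 0, from 0.41 for Ppargc1a to 1.26 for Polg.

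The melanoma markers themselves did not move as 1 block. In OVA tumor cells their CPM ranged from 20.9% (Slc24a5) to 141% (Oca2) of the level in B16-F10 tumor cells, with a median of 39.2%. Ppargc1a stood at 52.7%, Mitf at 68.5% and Sox10, another lineage factor of pigment cells, at 47.5%. Per 1000 counts of the melanoma markers, Ppargc1a had 27.5 ± 0.645 counts in B16-F10 tumor cells and 34.0 ± 0.850 in OVA tumor cells (SD, n = 3 each). On the TMM scale Mitf had a log2 fold change of -0.38 (SE 0.0155, edgeR adjusted p = 2.27e-16), and on the marker scale 0.79.

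Ppargc1a in the T fractions lay near the lower end of the range of the melanoma markers. Its CPM in the B16-F10 T fraction was 0.618% of that in B16-F10 tumor cells, and the 11 melanoma markers had between 0.586% and 3.17%, with a median of 1.14%. Only Pmel was below Ppargc1a there. In OVA tumors Ppargc1a had 0.442%, and the markers had between 0.186% and 2.27%, with a median of 1.12%. Only Oca2, at 0.186%, was below Ppargc1a there, and the other 10 markers had 0.759% or more. The other 8 members had far larger shares, from 21.03% for Tfb1m to 80.0% for Gabpa in B16-F10 tumors, and from 26.6% for Tfb1m to 111% for Gabpa in OVA tumors. Per 1000 melanoma marker counts, Ppargc1a had 16.2 ± 1.64 counts in the B16-F10 T fraction and 13.7 ± 2.42 in the OVA T fraction (SD, n = 3 each), less than in the tumor cells. How much of the Ppargc1a RNA in the T fractions came from melanoma cells was not tested.

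**Figure D3:**
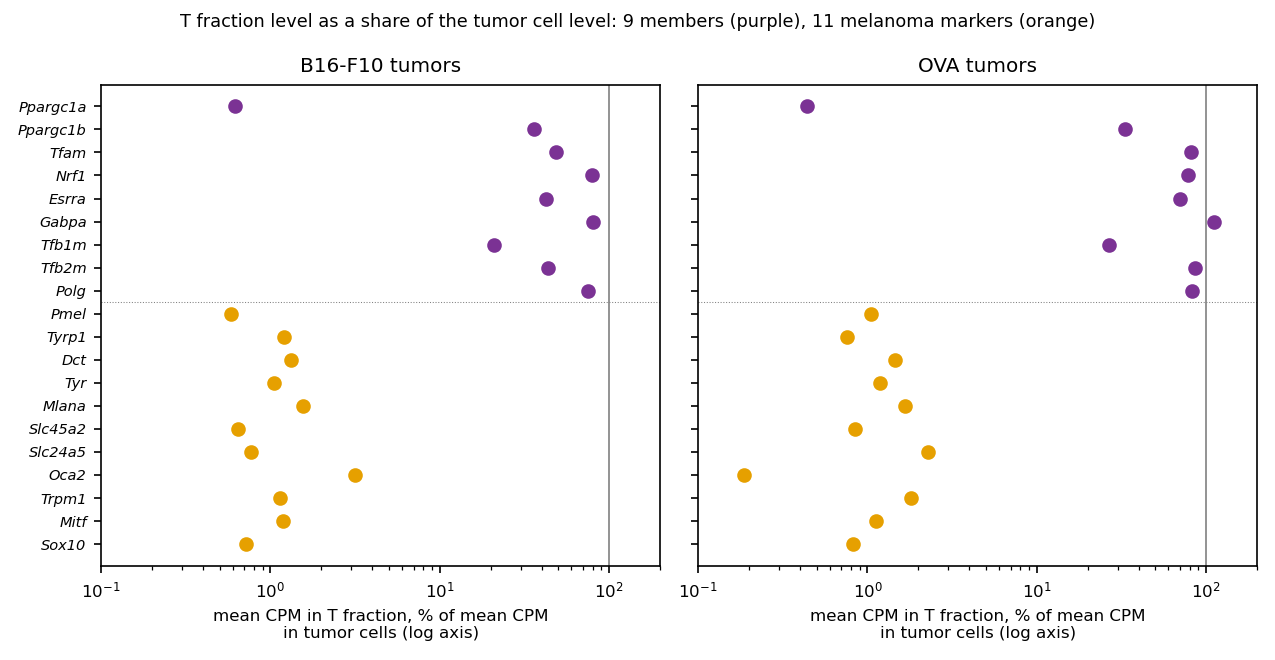
Mean CPM in the T fraction as a percent of the mean CPM in tumor cells (log axis), for the 9 genes and the 11 melanoma markers, in B16-F10 and in OVA tumors; the line marks 100%. Ppargc1a, at 0.618% and 0.442%, lies above 1 of the 11 melanoma markers in each line (Pmel and Oca2) and below the other 10, and the other 8 genes lie at 21.03% or more.

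Leaving out Ppargc1a, 6 of 8 members were lower in the T fraction than in tumor cells of B16-F10 tumors with TMM factors over all 12 libraries, and the estimates of all 8 were below 0. Of the 18562 genes tested, 40.4% were lower and 45.5% were higher. The median of the 8 members was -0.87, against 0.12 for all genes. Tfb1m had a log2 fold change of -2.02 (SE 0.177, edgeR adjusted p = 6.68e-11). It was the 1 member lower by more than 2-fold in edgeR's test of that fold, which 17.6% of all genes passed. Ppargc1b had -1.23 (SE 0.167, edgeR adjusted p = 2.24e-07), Esrra -0.98, Tfb2m -0.95, Tfam -0.80 and Polg -0.17 (SE 0.0338, edgeR adjusted p = 7.83e-05). Nrf1 and Gabpa did not pass, both at -0.08, with 95% intervals from -0.17 to 0.01 and from -0.16 to 0.01. Both passed as lower without replicate 3 of the B16-F10 tumor cells or without any 1 library of the OVA T fraction, and up to 8 of 8 members were then lower. Without a TMM factor they were at -0.33 and -0.32, and without a filter at -0.14 and -0.13, and 8 of 8 members were lower in both settings. Of the B16-F10 T fraction, leaving out replicate 1 made Gabpa pass, and leaving out replicate 3 made Nrf1 pass. The fitted value of Ppargc1a was -7.10.

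In OVA tumors 6 of the 8 members were lower in the T fraction and 1 was higher, where 40.2% and 37.3% of all genes were. The median of the 8 was -0.20, against -0.03 for all genes. Tfb1m at -1.77 (SE 0.165, edgeR adjusted p = 3.51e-10) and Ppargc1b at -1.43 (SE 0.186, edgeR adjusted p = 1.33e-07) were lower by more than 2-fold in edgeR's test of that fold, which 12.5% of all genes passed. Esrra had -0.37, Nrf1 -0.23, Tfam -0.17 (edgeR adjusted p = 0.0016) and Polg -0.14 (edgeR adjusted p = 0.000332). Gabpa was higher, by 0.27 (SE 0.0400, edgeR adjusted p = 1.27e-06). Tfb2m did not pass at -0.10, with an interval from -0.21 to 0.01. It passed as lower without a TMM factor (-0.23), without a filter (-0.17) and without replicate 1 of the OVA T fraction (-0.14), which gave 7 lower members. With median-ratio size factors in place of TMM, Tfam and Polg had -0.06 and -0.03 and no longer passed. The fitted value of Ppargc1a was -7.71. These T fractions also held the endothelial and fibroblast marker RNA given above, whose part in the values was not tested.

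Between the T fractions, Ppargc1a was lower in OVA than in B16-F10, with a log2 fold change of -1.36 (SE 0.190, edgeR adjusted p = 1.13e-06). The melanoma markers were lower too: 10 of 10 tested had a lower level in the OVA T fraction, with a median of -0.87, among them Mitf at -0.57 and Sox10 at -0.80. The CPM of Ppargc1a in the OVA T fraction was 37.7% of that in the B16-F10 T fraction, and the 11 markers ranged from 8.29% to 64.7%. The part of melanoma cell RNA in the fall of Ppargc1a was not tested.

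The other members, apart from Ppargc1b, differed little between the T fractions. Of all 9, 3 were lower and 3 were higher, where 22.4% and 23.7% of the 16536 genes tested were, and the median of the members was 0.11 against -0.01. Ppargc1b was lower by -0.73 (SE 0.245, edgeR adjusted p = 0.0163) and Nrf1 by -0.16 (SE 0.0470, edgeR adjusted p = 0.00713). Tfb2m was higher by 0.20 (SE 0.0651, edgeR adjusted p = 0.014), Tfam by 0.14 (SE 0.0542, edgeR adjusted p = 0.0367) and Polg by 0.12 (SE 0.0368, edgeR adjusted p = 0.007). Scaled by the T cell markers, these 3 had 0.07, 0.01 and -0.0045, and none passed the test.

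Each of these 5 calls was lost without 1 library or more. The B16-F10 T fraction libraries that decided a call were replicate 1, without which edgeR adjusted p was 0.0647 for Ppargc1b and 0.166 for Tfam, replicate 2 (0.0767 for Tfam) and replicate 3 (0.053 for Ppargc1b). Of the OVA T fraction, leaving out replicate 1 gave 0.0702 for Nrf1, 0.0727 for Tfb2m and 0.0622 for Polg, and leaving out replicate 3 gave 0.0724 for Ppargc1b and 0.187 for Tfam. Esrra at 0.11, Gabpa at 0.05 and Tfb1m at 0.16 did not pass, with 95% intervals from -0.01 to 0.23, from -0.03 to 0.12 and from -0.36 to 0.68.

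The OVA effect was then compared between the T fraction and the tumor cells as the difference of the log2 fold changes. With TMM factors 4 members had a higher value in the T fraction and 2 a lower one, where 27.7% and 41.3% of all genes did, and with the tumor libraries scaled by the melanoma markers all 9 had a lower value, where 84.4% of all genes did and 2.24% had a higher one. The median of the members was 0.25 with TMM factors, against -0.16 for all genes. The 4 higher ones, with TMM factors, were Tfb2m at 0.85 (SE 0.0771, edgeR adjusted p = 2.6e-10), Tfam at 0.63, Esrra at 0.61 and Gabpa at 0.34. With the marker scaling they were at -0.31, -0.53, -0.55 and -0.82. Ppargc1a was lower by -0.61 (SE 0.186, edgeR adjusted p = 0.00559) and Nrf1 by -0.15 (SE 0.0609, edgeR adjusted p = 0.031) with TMM factors. Without replicate 3 of the OVA T fraction, the value of Ppargc1a was -0.43 (edgeR adjusted p = 0.0703). That of Nrf1 failed the test without replicate 3 of the B16-F10 tumor cells, replicate 1 or 3 of the OVA tumor cells, any 1 library of the B16-F10 T fraction, or replicate 1 or 3 of the OVA T fraction. Ppargc1b at -0.20, Tfb1m at 0.25 and Polg at 0.03 did not pass, with 95% intervals from -0.73 to 0.33, from -0.29 to 0.79 and from -0.07 to 0.12.

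The profile of Ppargc1a over the 12 libraries was compared with those of 11622 genes that reached 5 CPM in at least 1 group. Likeness was the root mean square difference of log2(CPM + 0.5), each gene centred on its own mean, so that 0 is the same profile. The gap between tumor and T fraction libraries weighs most in this measure, and Ppargc1a was chosen as a gene known to be high in tumor libraries. Nearness to genes confined to the tumor cells, and distance from the other 8 members, thus follow in large part from that choice. The 5 nearest genes were Pax3 at 0.286, Slc45a2 at 0.292, Sox10 at 0.316, Tyrp1 at 0.350 and Pmel at 0.351, and 4 of them are among the 11 melanoma markers. Pax3, a transcription factor of the neural crest and the pigment lineage, had 359 ± 1.27 CPM in B16-F10 tumor cells and 134 ± 2.60 in OVA tumor cells. In the B16-F10 and OVA T fractions it had 2.07 ± 0.251 and 0.812 ± 0.103 CPM (SD, n = 3 each). None of the other 8 members was close. Tfb1m ranked 833 at 2.80, Ppargc1b ranked 1601 at 3.04 and Gabpa was the farthest, ranking 6491 at 3.63.

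**Figure D4:**
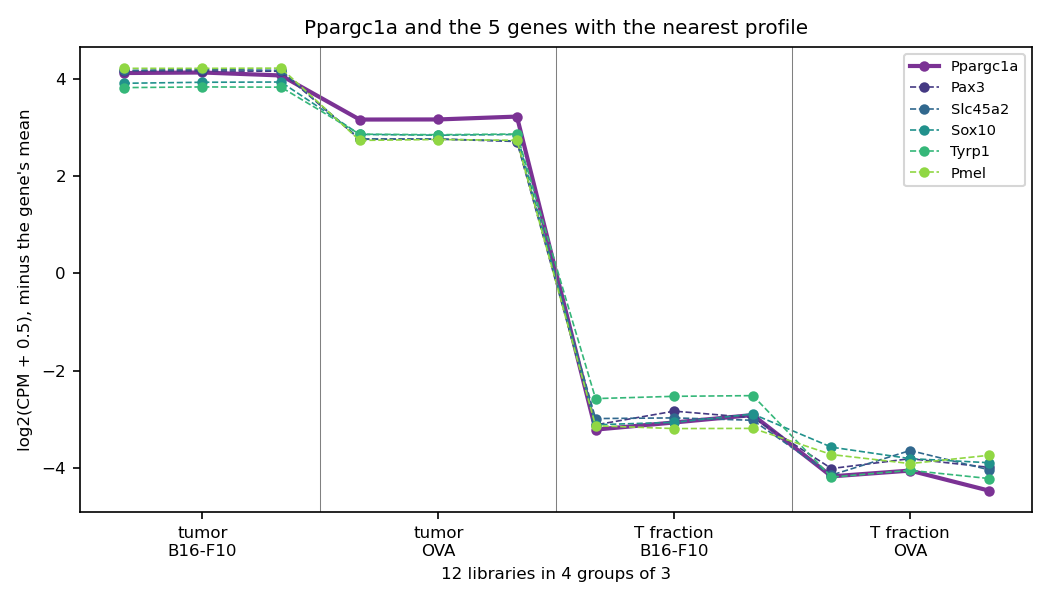
Log2(CPM + 0.5) of Ppargc1a and of its 5 nearest genes in the 12 libraries, each gene minus its own mean. The 6 lines run together, with root mean square differences from Ppargc1a between 0.286 (Pax3) and 0.351 (Pmel). The gap between tumor and T fraction libraries, known when Ppargc1a was chosen, weighs most in this difference.

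Genes that act with the members were described from lists of the same pathway, in OVA against B16-F10 tumor cells, by counts and medians to be read against 42.0% higher, 37.4% lower and the all-gene median of 0.04 on the TMM scale. On the melanoma marker scale the shares were 90.5% and 2.86% and the median was 1.21, and the lists of nuclear genes were near that share. Of 11 genes of the PGC-1 family and its cofactors, 4 were higher and 7 lower on the TMM scale, with a median of -0.15, and 11 were higher on the marker scale. The acetyltransferase gene Ep300 had -0.65 (0.52 on the marker scale), and the corepressor gene Ncor1 -0.44 (0.72). The coactivator gene Ncoa1 had -0.71 (0.45).

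Of 16 inputs to PGC-1α, 8 were higher and 6 lower on the TMM scale, with a median of 0.05 (-0.12 without a TMM factor), and 16 were higher on the marker scale. Mef2a, a transcription factor of muscle and other cells, was higher on both scales, by 1.33 on the TMM scale and 2.49 on the marker scale. Crtc2, a coactivator of CREB, was higher by 1.11 and 2.28. Sox10 was lower on the TMM scale, at -0.91, and higher on the marker scale, at 0.26. It is also 1 of the 11 melanoma markers that set the marker scale, so its value there is its distance from a set that includes it. Of 12 transcription factor partners tested, 7 were higher and 3 lower on the TMM scale, and 11 were higher on the marker scale. Foxo1, a factor of the insulin pathway, was higher by 2.18 on the TMM scale and 3.35 on the marker scale, while Yy1 had -0.48 and 0.69. Pparg, the nuclear receptor of fat cells after which the coactivators are named, had 0.0939 CPM in B16-F10 tumor cells and 16.4 CPM in OVA tumor cells, against 34.2 and 35.5 CPM in the B16-F10 and OVA T fractions. Sums of the 6 adipocyte markers were 0.504 and 256 CPM in the tumor cells and 678 and 687 CPM in the T fractions. Of the 6, 0 reached 1 CPM in B16-F10 tumor cells, 1 did in OVA tumor cells and 2 did in each T fraction. Only Fabp4 passed the filter on low counts between the tumor cells, and Lep had 0 counts in both tumor groups. The sums thus do not describe the whole marker set, and the part of these markers in the level of Pparg was not tested.

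The genes that copy and transcribe mitochondrial DNA were mostly lower in OVA tumor cells on the TMM scale and higher on the melanoma marker scale. Of 9 genes on the transcription list, 6 were lower and 1 was higher on the TMM scale, with a median of -0.52. On the marker scale 9 were higher, with a median of 0.65. Polrmt, the mitochondrial RNA polymerase that TFAM and TFB2M load onto the promoter, had 48.6 CPM in B16-F10 tumor cells and 25.1 in OVA tumor cells, and 14.2 and 13.9 in the B16-F10 and OVA T fractions. Its log2 fold change in tumor cells was -0.79 on the TMM scale (SE 0.0460, edgeR adjusted p = 2.01e-13) and 0.38 on the marker scale. Twnk, the mitochondrial DNA helicase, had -0.54 and 0.63, and Mterf4, a factor of the mitochondrial ribosome, -0.85 and 0.31. Both were on this list, which is therefore not one of transcription alone.

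Of 14 replication and nucleotide genes, 10 were lower and 1 was higher on the TMM scale, while on the marker scale 13 were higher and 1 was lower. The 1 lower gene was Mgme1, a nuclease of mitochondrial DNA, at -1.42 on the TMM scale and -0.26 on the marker scale. Ssbp1, the mitochondrial single-strand DNA-binding protein, had -0.74 on the TMM scale and 0.43 on the marker scale. The DNA ligase gene Lig3 had -0.34 and 0.82. Of 12 import and chaperone genes, 10 were lower and 2 higher on the TMM scale, and 12 were higher on the marker scale. The mitochondrial chaperone gene Hspd1 had 1015 CPM in B16-F10 tumor cells, 428 in OVA tumor cells, and 162 and 178 in the T fractions. In tumor cells it had -1.08 on the TMM scale and 0.09 on the marker scale, its partner Hspe1 -0.92 and 0.25, and the outer membrane receptor gene Tomm70a -0.69 and 0.48.

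Genes of the respiratory chain moved apart by the genome that encodes them. Of 17 nuclear genes of the chain, 17 were lower in OVA tumor cells on the TMM scale, with a median of -0.67, and on the melanoma marker scale 16 were higher and 1 was lower, with a median of 0.50. That 1 gene was Ndufa4, a subunit of the chain, at -1.47 and -0.31. Atp5f1b of the ATP synthase had -1.04 on the TMM scale and 0.13 on the marker scale, and Cyc1 of complex III -1.11 and 0.06. All 13 protein genes of mitochondrial DNA were higher on both scales, with a median of 1.77 on the TMM scale and 2.94 on the marker scale. One of them, mt-Nd3, had 0 counts in B16-F10 tumor cells, and the TMM median was 1.77 also with that gene at its bound of 3 counts. The oxidase gene mt-Co1 had 5628 CPM in B16-F10 tumor cells and 24939 in OVA tumor cells, and 12707 and 11726 in the B16-F10 and OVA T fractions. In tumor cells it had 2.32 on the TMM scale, mt-Co3 had 2.45 and mt-Nd1, of complex I, 2.66.

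Mitochondrial genes took 1.76% ± 0.0489 of the counts in B16-F10 tumor cells, 6.504% ± 0.0741 in OVA tumor cells, 3.31% ± 0.0824 in the B16-F10 T fraction and 2.78% ± 0.0145 in the OVA T fraction (SD, n = 3 each). The OVA tumor cells had the highest share and B16-F10 tumor cells the lowest, with no overlap between groups.

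Of 16 fuel and redox targets of PGC-1α tested in tumor cells, 5 were higher and 8 lower on the TMM scale, with a median of -0.16, and 15 were higher on the marker scale. Ucp2, an inner membrane carrier that is also high in immune cells, had 4.68 CPM in B16-F10 tumor cells, 189.6 in OVA tumor cells, and 145.6 and 149.8 in the B16-F10 and OVA T fractions. Its log2 fold change in tumor cells was 5.50 on the TMM scale and 6.67 on the marker scale. Idh3a of the citric acid cycle had -1.03 and 0.14, and the peroxiredoxin gene Prdx5 1.27 and 2.43. The macrophage and monocyte markers, which rose from 12.4 to 1673 CPM, moved in the same direction as Ucp2, and their part in it was not tested.

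**Figure D5:**
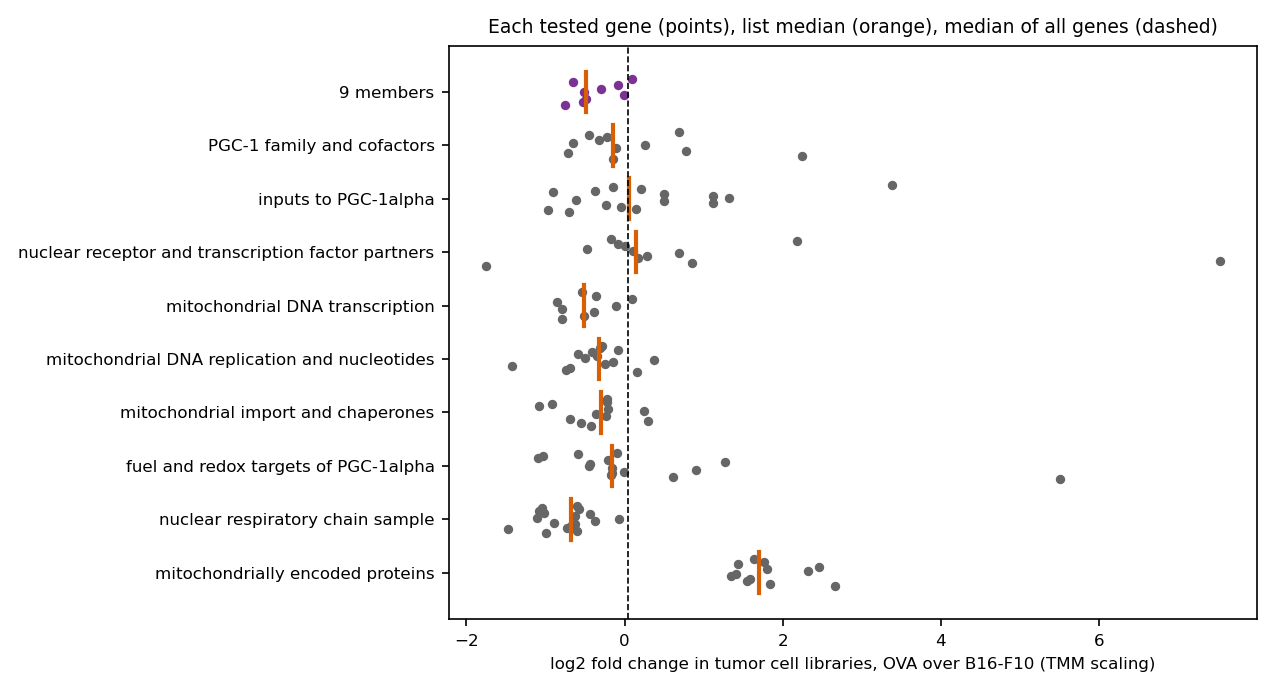
Log2 fold change in tumor cells, OVA over B16-F10, on the TMM scale, for each tested gene of the 9 members and of the pathway lists with more than 3 counts in both groups; the orange mark is the median of the points drawn and the dashed line the median of all genes, 0.04. The 17 nuclear respiratory chain genes lie below 0 with a median of -0.67, and on the melanoma marker scale 16 of them lie above 0; the mitochondrially encoded genes lie above 0 on both scales.

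In B16-F10 tumors 4 lists of nuclear genes were mostly lower in the T fraction than in tumor cells. Of all genes, 40.4% were lower and 45.5% higher there, with a median of 0.12. Of the transcription list, 8 of 9 were lower, of the replication genes 13 of 14, of the import genes 12 of 12 and of the nuclear respiratory chain genes 17 of 17. The medians were between -1.23 and -0.87. The other nuclear lists were mixed: 4 genes of the PGC-1 family and its cofactors were higher and 6 lower (median -0.14), 9 inputs were higher and 7 lower (0.33), 7 partners were higher and 4 lower (0.47), and 6 fuel and redox targets were higher and 7 lower (-0.09). The 13 mitochondrially encoded genes were all higher, with a median of 0.94, and mt-Nd3 was at 0 counts in the tumor cells. In OVA tumors 40.2% of all genes were lower in the T fraction and 37.3% higher, with a median of -0.03. The same 4 nuclear lists had 6 of 9, 12 of 14, 11 of 12 and 17 of 17 lower there, with medians of -0.72, -0.54, -0.83 and -0.57. The 13 mitochondrially encoded genes were all lower, with a median of -1.23. The median of the mitochondrially encoded genes thus changed sign between the tumor lines. That of the PGC-1 family and its cofactors did too, at 0.20 in OVA tumors, with 6 genes higher and 3 lower. The OVA effect in the T fraction minus that in tumor cells was lower for all 13. Between the T fractions the nuclear lists of mitochondrial genes were near or below the shares of all genes, 23.7% higher and 22.4% lower. Of 14 replication genes 2 were higher and 4 lower, of 12 import genes 3 were higher and 1 lower, and of 17 nuclear respiratory chain genes 5 were lower. Of the 9 genes on the transcription list 0 passed in edgeR, DESeq2 or limma-voom, and at an unadjusted p under 0.05 the counts were 1, 0 and 0. The other nuclear lists each stood above 1 of these 2 shares of all genes. Of 11 genes of the PGC-1 family and its cofactors 6 were higher and 1 lower, and of 11 partners tested 6 were higher and 2 lower. Of 17 fuel and redox targets tested 6 were higher and 2 lower, and of 16 inputs 4 were higher and 6 lower. Of 12 mitochondrially encoded genes tested 1 was higher and 10 were lower, with a median of -0.25.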

How the data were processed

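RNA-seq was deposited for 12 libraries in 4 groups of 3, grouped by the labels' tissue and cell line. The authors deposited raw counts per Ensembl gene. Per the submitters' processing notes, HISAT2 2.0.5, featureCounts 1.6.0 and the build GRCm39 were used. The annotation release, the strand setting and the treatment of multimapping reads are not given in the sources used here. Library totals were 15494683 to 33263730 counts, and every count column was used. All 191 symbols of the members and lists were found.

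Counts were filtered by filterByExpr, scaled by TMM and tested with edgeR 4.0.16 (R 4.3.3) quasi-likelihood F tests, Benjamini-Hochberg adjusted over all genes tested at a threshold of 0.05. The OVA effects used 6 libraries each, and the other comparisons all 12. Standard errors came from the F statistic and 95% intervals from its degrees of freedom. Calls beyond 2-fold used glmTreat. The fits were tested on simulated data with known changes. These changes were in few genes and in equal numbers up and down, so the simulation cannot check the choice of scaling.

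Levels per kilobase used the exon union of GENCODE M21 (GRCm38), another annotation than that of the counts. Promoters came from RefSeq GRCm38.p6.

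Named were the 9 members, the 3 genes of each pathway list with the smallest adjusted p in OVA against B16-F10 tumor cells, the 5 genes nearest in profile to Ppargc1a, and anchor genes such as Mitf. Pprc1, mt-Nd3, Slc24a5 and Oca2 were named after their values were seen. The members and lists were chosen with earlier results of these data known, and the lists are described without a test. Alternatives were median-ratio size factors, no TMM, 2 filters, DESeq2 1.42.0, limma-voom (limma 3.58.1), a 2-fold test, marker scalings, a replicate block and leaving out each library.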

Additional observations from a re-analysis of the deposited data

Results flagged for a closer look

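For 6 of the 9 genes the OVA effect differed between the T fraction and the tumor cells by edgeR's test of the difference, on the TMM scale. Of all 18562 genes tested, 27.7% had a higher and 41.3% a lower value, so the count of 6 is no more than the share of all genes. The OVA effect in the T fraction minus that in tumor cells was 0.85 for Tfb2m, 0.63 for Tfam, 0.61 for Esrra, 0.34 for Gabpa, -0.61 for Ppargc1a and -0.15 for Nrf1. With TMM, Tfb2m and Tfam had the opposite direction in the 2 cell fractions, at -0.65 and -0.49 in tumor cells and 0.20 and 0.14 in the T fraction. Scaled by the T cell markers, the T fraction values were 0.07 and 0.01 and did not pass. Both T fraction calls were also lost without replicate 1 of the OVA T fraction for Tfb2m and without replicate 3 of it for Tfam. When the tumor libraries were scaled by the 11 melanoma markers, an alternative chosen after seeing the data, the same differences were -0.31, -0.53, -0.55, -0.82, -1.76 and -1.31, where 84.4% of all genes had a lower value. The direction for Tfb2m, Tfam, Esrra and Gabpa thus turned with the scaling. That for Ppargc1a and Nrf1 could not turn, since this scaling lowered the differences of all 9 genes and theirs were already below 0. The melanoma marker sum was 23449 CPM in B16-F10 and 9988 CPM in OVA tumor cells, and its part in these differences was not tested.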

How the results depend on the processing

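Over the members and comparisons, 837 values were recomputed under an alternative. Of these, 721 were labelled unchanged, 66 fell short of the threshold, 21 newly passed it, 16 turned and 13 moved with no test. Unchanged meant the same side of the threshold, so values that passed in neither fit could turn. Between T fractions, Esrra went from 0.11 to -0.02 and Gabpa from 0.05 to -0.08 with T cell marker scaling. For Ppargc1a between T fraction and tumor cells, which was not tested, unchanged meant a shift smaller than the SD of its log2 CPM in B16-F10 tumor cells. In OVA against B16-F10 tumor cells (13838 genes called; 1 member higher, 6 lower), melanoma marker scaling gave 9 members higher and 0 lower, turned Ppargc1a to 0.41, Ppargc1b to 0.64, Tfam to 0.68, Nrf1 to 1.16, Esrra to 0.66, Gabpa to 0.87, Tfb1m to 1.09 and Tfb2m to 0.51, and moved the share of calls that were higher from 52.9% to 96.9%. Without TMM, and without a filter, 0 members were higher, and without TMM 9 were lower and Polg turned to -0.0752 (edgeR adjusted p = 0.027). For the T fractions (7623 genes; 3 higher, 3 lower), 0 members were higher without TMM, 1 was higher and 1 lower in DESeq2, and T cell marker scaling gave 0 higher, with Polg at -0.0045. The share of calls that were higher went from 51.3% to 38.8% without TMM and 25.8% with T cell marker scaling. In the difference of the OVA effects (12817 genes; 4 higher, 2 lower), 1 member was lower with median-ratio factors, without TMM, without a filter, in DESeq2 and in limma-voom, where Ppargc1a had an adjusted p of 0.054. Melanoma marker scaling of the tumor libraries, chosen after seeing the data, gave 0 higher and 9 lower, with Tfam at -0.53, Esrra at -0.55, Gabpa at -0.82, Tfb1m at -0.91, Tfb2m at -0.31 and Polg at -1.13, and 2.59% of calls higher against 40.2%. Between T fraction and tumor cells, 8 of 8 members were lower in B16-F10 and 7 in OVA both without TMM and without a filter. The cause of these changes was not tested.

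The test against 2-fold, which asks for more, called 4664 genes in tumor cells, 450 between T fractions, 8713 between T fraction and tumor cells in B16-F10 (15948 at the plain test), 4295 in OVA (14394) and 4970 for the difference of effects. It called 0 members higher and 0 lower in tumor cells, between T fractions and for the difference, 1 lower in B16-F10, and 0 higher and 2 lower in OVA. Leaving out each library in turn gave 13528 to 14021 genes in tumor cells, 6904 to 7186 between T fractions and 12580 to 12813 for the difference, with 1 to 3 members higher between T fractions and 0 to 2 lower for the difference.

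Replicate numbers showed no pairing common to all groups: deviations of same-numbered libraries correlated between -0.086 and 0.246, with 3 of 18 pairs over 0.1. Between OVA tumor cells and OVA T fraction, replicates 1, 2 and 3 had 0.246, -0.086 and 0.19. This check cannot tell whether libraries share a mouse or a batch. With a replicate block, 13656, 7576, 15905, 14310 and 12723 genes were called in the 5 comparisons (tumor cells, T fractions, T fraction against tumor cells in B16-F10 and in OVA, difference), and members by 1 higher and 6 lower, 3 and 3, 0 and 6, 1 and 6, and 4 and 2, with 0 member calls changed.

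Depth limits Ppargc1a in the T fractions, where it rests on 28 to 70 counts in a library, and Tfb1m and Ppargc1b, whose smallest count was 17. Libraries of 1 group differed by 1.51 to 1.77 times counting noise (chi-square per degree of freedom). Ppargc1a in the T fractions cannot be told apart from RNA of melanoma cells by these counts, and the OVA tumor cell libraries held marker RNA of other cell types.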

Other observations

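Pdk4 and mt-Nd3 belong to the pathway lists and were singled out after their values were seen, because both had 0 counts in the 3 libraries of B16-F10 tumor cells. Pdk4 encodes a kinase that turns off pyruvate dehydrogenase and is a known target of PGC-1α and ERRα. It had 13.3 CPM in OVA tumor cells, 32.0 CPM in the B16-F10 T fraction and 57.2 CPM in the OVA T fraction, so its order over the groups was the reverse of that of Ppargc1a. The endothelial, fibroblast, macrophage and T cell marker sums were also lowest in B16-F10 tumor cells, and their part in this order was not tested. The mitochondrially encoded complex I gene mt-Nd3 had 13.8 CPM in OVA tumor cells and 2.24 and 0.947 CPM in the B16-F10 and OVA T fractions, far below mt-Co1 in each group.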
